A study of Mus musculus with 6 samples.

Results

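The genes of glycolysis and pyruvate handling were described here in the anterior prostate (AP) of mice with forced Notch1 activity. They were taken by gene symbol from a list of 35, which runs from glucose transporters through the enzymes of the pathway to lactate dehydrogenase, the monocarboxylate transporters, the regulatory enzymes of phosphofructokinase and pyruvate dehydrogenase, and Hif1a. All 35 symbols were found, in 36 of the 55076 entries of each table, because Aldoa is listed under 2 gene identifiers. RNA of the whole AP was sequenced from 3 OEx and 3 Ctrl male mice aged 20 weeks, with 1 library for each. The methods of the study name clearing of secretions under RNA isolation and qRT-PCR, and do not repeat it for the sequencing. OEx mice were Pbsn-Cre Rosa26 N1ICD/+, in which the probasin promoter drives Cre in prostatic epithelium and Cre switches on the Notch1 intracellular domain (N1ICD) from the Rosa26 locus. Ctrl mice are labelled as wild type, and the methods of the study describe them as Rosa26 N1ICD/+ without Cre, so that both groups carry the same N1ICD allele. Epithelium, stroma, vessels and blood contribute to each value, and in such bulk tissue fewer cells of a type cannot be told apart from less RNA per cell.

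Glycolysis turns glucose into pyruvate in the cytosol through a chain of enzymes, most of which exist as several isoforms encoded by separate genes. Pyruvate then either enters mitochondria, where pyruvate dehydrogenase commits it to oxidation, or is reduced to lactate by lactate dehydrogenase and exported. Secretory prostate epithelium is known for exporting citrate rather than oxidising it fully, and therefore for a distinctive use of glucose carbon. Hif1a encodes the oxygen-regulated subunit of a transcription factor that controls many genes of this pathway, and its activity is set largely at the protein level.

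The libraries held 14778406 to 18665742 reads, as recovered from the deposited FPKM values (fragments counted on a gene, divided by its length in kilobases and by a measure of library size). Notch1 itself was at 41.9, 47.6 and 78.9 FPKM in OEx mice and at 5.18, 5.55 and 3.34 FPKM in Ctrl mice. In Ctrl mice 14.2% to 22.0% of reads belonged to the most abundant gene, in OEx mice at most 1.12%. The deposited values already carried a scaling between mice, since their denominators were 1.22 to 1.34 (OEx) and 0.725 to 0.814 (Ctrl) times the recovered depth. Replicate 3 stood apart from replicates 1 and 2 in both groups. Ctrl 3 carried the seminal vesicle genes Svs5, Svs2 and Svs4, at 10670, 3837 and 479 FPKM. The other markers of that list, Svs1, Svs3a and Svs6, were at 0.166, 0 and 2.58 FPKM in Ctrl 3. All 6 summed to 14993 FPKM in Ctrl 3, against 3.99 and 2.38 in the other Ctrl mice and 0.578 to 0.988 in OEx mice. Luminal markers were present in every mouse, with sums of 2814 to 6042 FPKM in OEx mice and 24497 to 24792 in Ctrl mice, and 3 of the 5 were called lower, 2 of them also with library totals. All 3 basal markers were called lower with either scaling, with sums of 3.72 to 5.32 against 99.4 to 121.8 FPKM. All 5 smooth muscle markers were called lower with the deposited scaling, with sums of 350.8 to 417.6 against 1043 to 2245 FPKM, the highest in Ctrl 3. With library totals 2 of the 5, Acta2 and Cnn1, were called. Without Ctrl 3 the calls on Des (-0.79) and Myh11 (-0.88) were lost, and without OEx 3 that on Des (-0.80). The 4 endothelial markers summed to 5.83 to 7.02 FPKM in OEx mice and 11.4 to 16.6 in Ctrl mice, the 4 neural markers to 3.39 to 5.37 and 2.02 to 4.53, and the 3 lymphoid markers to 0.258 to 1.28 and 0.0947 to 0.336.

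Both lactate dehydrogenase genes, Aldoa, Tpi1, Pgk1, Pfkm, the transporter genes Slc2a1 and Slc2a4, Pfkfb4 and Pdk3 were lower in OEx mice with the deposited scaling, and Hk2, Pfkfb2 and Hif1a were higher. Of the 35 genes, 28 had a mean of at least 1 FPKM over the 6 mice and were tested. A gene was called with a limma adjusted p under 0.05 and a log2 fold change, on the scale of log2(FPKM + 1), beyond 1 in either direction. By this rule 3 genes were higher in OEx mice, where 12.9% of all 12833 tested genes were, and 10 were lower, where 15.7% of all tested genes were. By the adjusted p alone 6 were higher and 13 lower, where 30.7% and 36.5% of all tested genes were. Every OEx mouse lay below every Ctrl mouse for 14 of the 28 genes and above for 6, which 38.9% and 33.4% of all tested genes did. The median log2 fold change was -0.50 over the 28 genes and -0.08 over all tested genes. When each mouse was instead scaled to its library total, the median of all tested genes moved to 0.56 and that of the 28 genes to 0.11, so that the distance between them was -0.42 with the deposited scaling and -0.45 with library totals. This distance was -0.22 with no filter on low values, -0.29 without Ctrl 3 and -0.53 with a mean of at least 5 FPKM. With library totals the counts of higher and lower genes were 6 and 5 (30.6% and 4.59% of all tested genes), and 3 and 7 (19.7% and 9.38%) with library totals that omit the 20 most abundant genes. They were 3 and 11 without OEx 3 (13.4% and 15.8%), 3 and 12 without Ctrl 3 (13.1% and 15.9%), and 3 and 12 without both (14.2% and 16.5%). After removal of trends over gene length and GC content 2 were higher, Hk2 and Eno3, and 6 lower, where 11.3% and 9.76% of all tested genes were. Summed over the 35 genes, the level was 675 ± 5.18 FPKM in OEx mice and 1438 ± 107.6 in Ctrl mice (SD, n = 3). This sum lay lower in every OEx mouse than in any Ctrl mouse under each of the 5 scalings compared, but the ratio of Ctrl to OEx fell from 2.13 to 1.23 with library totals.

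**Figure D1:**
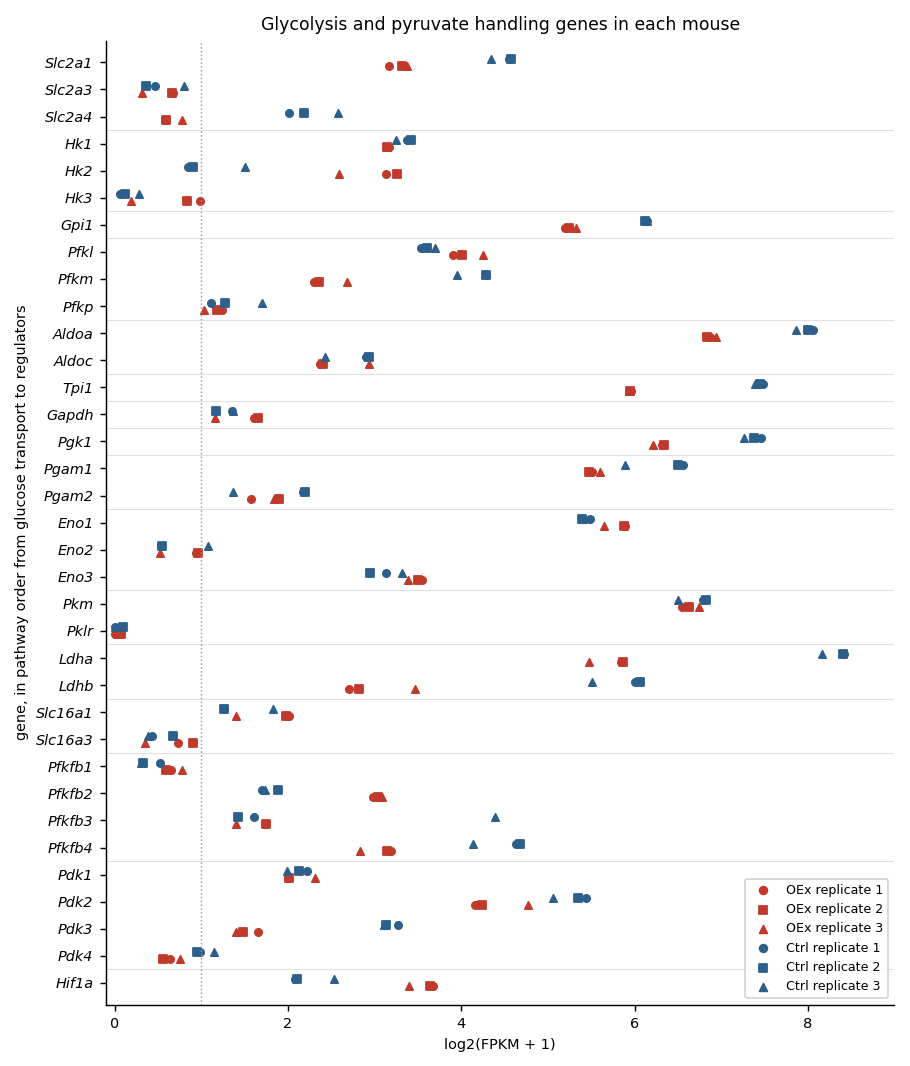
Level of the 35 genes in each of the 6 mice, on a log2(FPKM + 1) axis, with OEx mice in red and Ctrl mice in blue, a symbol for each replicate number and genes in pathway order. The dotted line marks 1 FPKM. Ldha and Ldhb show the widest separation of the groups, with all 3 OEx mice to the left, and Pfkfb3 shows a single Ctrl mouse, replicate 3, far to the right.

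Glucose enters the cell through transporters of the Slc2a family. Slc2a1, the widely expressed transporter GLUT1, was at 7.98, 8.96 and 9.34 FPKM in OEx mice and at 22.5, 22.8 and 19.2 FPKM in Ctrl mice. All OEx mice lay below all Ctrl mice. The log2 fold change was -1.21 (SE 0.10, limma adjusted p = 0.000115). Slc2a4, the insulin-responsive transporter GLUT4 of muscle and fat, was at 0.504, 0.503 and 0.717 FPKM in OEx mice and at 3.03, 3.53 and 4.96 in Ctrl mice, again without overlap (log2 fold change -1.60, SE 0.17, limma adjusted p = 0.000259). The 5 adipocyte markers summed to 0.338 to 0.580 FPKM in OEx mice and 1.55 to 5.24 in Ctrl mice, most of it Fabp4. Lep was at 0 in every mouse, and Adipoq, Plin1 and Cidec stayed at or under 0.334 FPKM. Fabp4, the only marker tested, was called lower (-1.36, and -0.98 and not called with library totals). The 9 skeletal muscle markers summed to 26.3 to 33.8 FPKM in OEx mice and 188.5 to 433.3 in Ctrl mice, almost all of it the actin gene Acta1, with Myh1 and Myh4 at 0 in every mouse, and 2 of the 3 tested were called lower. All of these sums, and that of the smooth muscle markers, were highest in Ctrl 3, as Slc2a4 was, and their part in the result was not tested. Slc2a3, the high-affinity transporter of neurons and white blood cells, stayed at or under 0.745 FPKM and was not tested. With library totals the log2 fold change of Slc2a4 was -1.16 and was called, whereas that of Slc2a1 was -0.48 and was not. The call on Slc2a1 was also lost, at -0.78, when trends over gene length and GC content were removed.

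At hexokinase, which traps glucose as glucose 6-phosphate, the isoforms moved unequally. Hk2 (ENSMUSG00000000628.10, chromosome 6, 82725025 to 82774454 on the minus strand of GRCm38), the insulin-regulated isoform of muscle and fat that many dividing cells also use, was at 7.73, 8.59 and 5.02 FPKM in OEx mice and at 0.79, 0.867 and 1.84 FPKM in Ctrl mice. Every OEx mouse was above every Ctrl mouse, and replicate 3 of each group lay nearest to the other group. The log2 fold change was 1.91 (SE 0.25, limma adjusted p = 0.000596), the largest rise among the 28 genes under each scaling compared. Hk1, the housekeeping isoform, was at 7.98, 7.82 and 7.82 FPKM in OEx mice and at 9.34, 9.69 and 8.48 in Ctrl mice, which did not pass the test (log2 fold change -0.19, SE 0.08, limma adjusted p = 0.0747) and turned to 0.51 with library totals. Hk2 therefore made up 46.3%, 49.96% and 38.7% of the summed hexokinase FPKM in OEx mice against 7.77%, 8.15% and 17.5% in Ctrl mice. Such a share is a ratio within a mouse, which a scaling between mice cannot change. The Hk2 share differed by 33.9 percentage points (exact permutation test, two-sided, p = 0.1, the smallest that 3 against 3 mice can give). Its size depends on the length that FPKM divides by, 8532 bases for Hk1 and 5969 for Hk2. Their principal transcripts have 3851 and 5513. In recovered reads OEx mice had 920, 1172 and 541 for Hk2 and 1359, 1525 and 1205 for Hk1. The summed hexokinase level was 15.6 ± 2.30 FPKM in OEx mice and 10.5 ± 0.244 in Ctrl mice, without overlap. Hk3, an isoform of myeloid cells, was not tested. Its 0.98 and 0.784 FPKM in OEx 1 and 2 fell to 0.135 in OEx 3, within the Ctrl range of 0.0434 to 0.214. The 7 myeloid markers summed to 33.2 and 33.3 FPKM in OEx 1 and 2, to 8.10 in OEx 3 and to 8.31 to 15.7 in Ctrl mice, and their part in the level of Hk3 was not tested.

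Gpi1, which converts glucose 6-phosphate to fructose 6-phosphate, was at 35.6, 37.0 and 39.2 FPKM in OEx mice and at 69.6, 68.3 and 69.7 in Ctrl mice. The groups were far apart relative to their spread, but the log2 fold change of -0.88 (SE 0.08, limma adjusted p = 0.000116) lay short of the fold criterion, and it was -0.11 with library totals.

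Phosphofructokinase, the committed step, also changed in its isoforms. Pfkm, the muscle isoform, was at 3.92, 4.14 and 5.41 FPKM in OEx mice and at 18.6, 18.5 and 14.4 FPKM in Ctrl mice. It did not overlap between groups and fell by 1.73 on the log2 scale (SE 0.15, limma adjusted p = 0.000115), a call that held with library totals at -1.03. Pfkl, the liver isoform, was at 13.97, 15.1 and 18.03 FPKM in OEx mice and at 10.6, 11.1 and 11.9 in Ctrl mice. All OEx mice were above all Ctrl mice, and its log2 fold change of 0.45 (SE 0.11, limma adjusted p = 0.0116) was under the fold criterion with the deposited scaling and beyond it, at 1.17, with library totals. Pfkp, the platelet isoform, was at 1.04 to 1.35 FPKM in OEx mice and 1.15 to 2.25 in Ctrl mice, which overlapped (log2 fold change -0.21, 0.23 with library totals, limma adjusted p = 0.32 with the deposited scaling). In each Ctrl mouse Pfkm had the highest FPKM of the isoforms, at 61.3%, 59.6% and 50.4% of their sum. In each OEx mouse Pfkl had, at 72.6%, 73.7% and 73.7%, with Pfkm at 20.4%, 20.2% and 22.1%. The order in Ctrl mice depends on the length that FPKM divides by, 6675 bases for Pfkl and 3340 for Pfkm. Their principal transcripts have 3730 and 2879. In recovered reads Pfkl led in Ctrl mice too, with 884, 961 and 1211 against 776, 801 and 731 for Pfkm. The summed level of the 3 isoforms was lower in OEx mice with the deposited scaling, 21.4 ± 2.74 against 30.0 ± 1.27 FPKM, and higher with library totals, so that no direction is given for it.

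**Figure D2:**
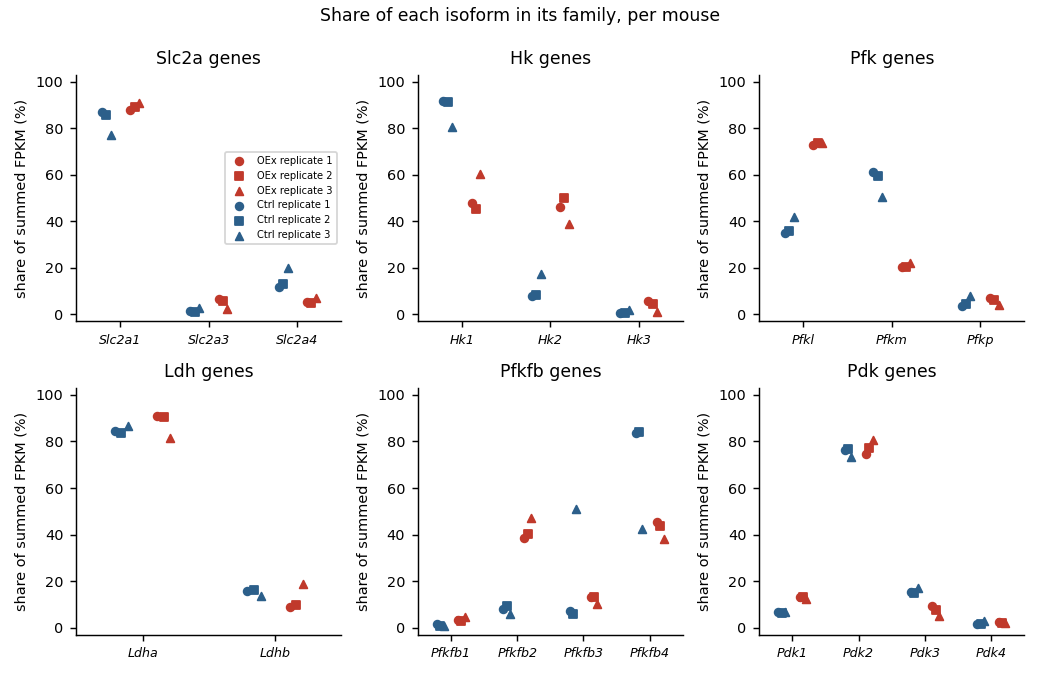
Share of each isoform in the summed FPKM of its family, in percent, for 6 families and each of the 6 mice (OEx red, Ctrl blue, a symbol for each replicate number). The hexokinase, phosphofructokinase and Pfkfb panels show isoforms (Hk1 and Hk2, Pfkl and Pfkm, Pfkfb2) whose shares do not overlap between the groups, while the Ldha and Ldhb shares overlap.

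The next enzymes were among the most abundant of the pathway. Aldoa, the main aldolase, which splits fructose 1,6-bisphosphate, was at 116, 113 and 122 FPKM in OEx mice and at 266, 256 and 232 in Ctrl mice (log2 fold change -1.09, SE 0.09, limma adjusted p = 9.71e-05). Tpi1, which interconverts the products of that split, was at 61.0, 60.7 and 60.01 FPKM in OEx mice and at 178, 174 and 167 in Ctrl mice (log2 fold change -1.5, SE 0.07, limma adjusted p = 2.64e-05). Neither overlapped between groups. Pgk1, which makes the first ATP of the pathway, was at 78.8, 79.7 and 73.2 FPKM in OEx mice and at 174, 165 and 153 in Ctrl mice (log2 fold change -1.08, SE 0.09, limma adjusted p = 0.000102). It too did not overlap. Relative to the median of all tested genes these changes were -1.02, -1.42 and -0.999 with the deposited scaling, and -0.87, -1.28 and -0.86 with library totals. Without that reference the log2 fold changes with library totals were -0.32 for Aldoa, -0.73 for Tpi1 and -0.30 for Pgk1, all 3 short of the fold criterion. Removal of the trends over gene length and GC content ended the same 3 calls, with values of -0.52, -0.93 and -0.54. Aldoc, the brain aldolase, was at 4.16, 4.29 and 6.67 FPKM in OEx mice and at 6.47, 6.67 and 4.38 in Ctrl mice, a full overlap in which replicate 3 of each group sat with replicates 1 and 2 of the other (log2 fold change -0.19, 0.47 with library totals). The entry of Aldoa under a different identifier held 0.330 to 0.985 FPKM and was not used.

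The level of Gapdh, which oxidises glyceraldehyde 3-phosphate and is usually among the most abundant messages of a cell, was only 2.04, 2.14 and 1.23 FPKM in OEx mice and 1.55, 1.25 and 1.58 in Ctrl mice. These values rest on 67 to 202 reads per mouse. In the annotation, 82.5% of the stretches of 50 bases in its principal transcript occur in other annotated genes as well. The 101 entries that each hold 5.03% to 82.5% of these stretches summed to 12.1 to 14.7 FPKM in OEx mice and 16.7 to 21.8 in Ctrl mice. Not all of these entries are copies of Gapdh, such as Peli2 with 6.13% of the stretches and 0.799 to 2.40 FPKM. How reads with several matches were counted is not given in the sources used here, and the part of shared sequence in this low value was not tested. The log2 fold change of 0.18 (SE 0.16, limma adjusted p = 0.373) covers only the reads counted for this entry. The same measure was 72.2% for Eno1, 68.0% for Pgk1, 41.5% for Pgam1, 34.4% for Pkm, 27.0% for Ldhb, 25.3% for Gpi1, 25.1% for Pfkfb2, and at most 23.2% for each of the other genes. It was 0 for Hk1, Hk2, Pfkm, Pdk3, Pfkfb4 and Slc2a4. Among the entries with shared stretches, Tpi-rs11 followed Tpi1, with 11.6 to 14.1 FPKM in OEx mice and 37.4 to 42.2 in Ctrl mice. The part that shared reads play in either was not tested.

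The steps from 3-phosphoglycerate to pyruvate moved in different directions. Pgam1, the mutase, was at 44.5, 43.5 and 47.5 FPKM in OEx mice and at 93.2, 89.5 and 58.3 in Ctrl mice, with Ctrl 3 nearest to the OEx mice. Its log2 fold change of -0.79 (SE 0.18, limma adjusted p = 0.00816) was short of the fold criterion, reached -1.001 and was called without Ctrl 3, and was -0.02 with library totals. Pgam2, the muscle mutase, overlapped between groups at 1.97 to 2.71 and 1.57 to 3.59 FPKM (log2 fold change -0.15, 0.42 with library totals). Eno1, the main enolase, was at 58.2, 58.0 and 49.1 FPKM in OEx mice and at 43.9, 41.2 and 41.4 in Ctrl mice. Eno3, the muscle enolase, was at 10.6, 10.4 and 9.46 FPKM in OEx mice and at 7.77, 6.71 and 8.97 in Ctrl mice. Both lay above the Ctrl range in every OEx mouse, with log2 fold changes of 0.37 (SE 0.10, limma adjusted p = 0.0118) and 0.35 (SE 0.12, limma adjusted p = 0.0347), under the fold criterion and beyond it with library totals, at 1.14 and 1.05. Eno3 was also called, at 1.12 (limma adjusted p = 0.000214), after removal of the trends over length and GC content. Their shares of the enolase sum were nearly equal in both groups, Eno1 at 83.5 ± 0.238% in OEx mice and 83.3 ± 2.52% in Ctrl mice. Eno2, the neuronal enolase, stayed at or under 1.10 FPKM and was not tested. Pkm, which encodes the pyruvate kinase of most tissues, was at 92.3, 97.8 and 105.9 FPKM in OEx mice and at 109.9, 112.1 and 89.7 in Ctrl mice. The groups overlapped, and the log2 fold change was -0.07 (SE 0.11, limma adjusted p = 0.615) with the deposited scaling and 0.71 with library totals, 0.01 and 0.15 relative to the median of all tested genes. These values join the splice forms of Pkm, which gene-level values cannot separate. Pklr, the liver and red cell kinase, had at most 4 reads in any mouse.

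The 2 lactate dehydrogenase genes fell furthest of the 28. Ldha (ENSMUSG00000063229.15, chromosome 7, 46841475 to 46855627 on the plus strand of GRCm38) encodes the subunit that prevails in muscle and favours lactate formation, and was at 56.3, 57.1 and 43.6 FPKM in OEx mice and at 341.6, 338.2 and 286.5 in Ctrl mice. Ldhb (ENSMUSG00000030246.11, chromosome 6, 142490249 to 142507957 on the minus strand) encodes the subunit that prevails in heart, and was at 5.52, 6.04 and 10.02 FPKM in OEx mice and at 63.1, 66.0 and 44.5 in Ctrl mice. No OEx mouse came near the lowest Ctrl mouse for either gene. The log2 fold changes were -2.60 (SE 0.14, limma adjusted p = 3e-05) for Ldha and -2.86 (SE 0.24, limma adjusted p = 0.000111) for Ldhb, ratios of 6.15 and 8.04 between the group means. Both calls held under each of the 20 alternatives tried, and with library totals the values were -1.83 and -2.13. Ldha kept most of the summed lactate dehydrogenase FPKM, at 91.1%, 90.4% and 81.3% in OEx mice and 84.4%, 83.7% and 86.5% in Ctrl mice, so that the balance of the subunits overlapped between groups. Export of lactate runs through the monocarboxylate transporters. Slc16a1 (MCT1) was at 3.02, 2.92 and 1.63 FPKM in OEx mice and at 1.39, 1.40 and 2.54 in Ctrl mice, an overlap in which replicate 3 of each group lay inside the range of the other (log2 fold change 0.34, SE 0.23, limma adjusted p = 0.229). Slc16a3 (MCT4) stayed at or under 0.872 FPKM and was not tested.

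**Figure D3:**
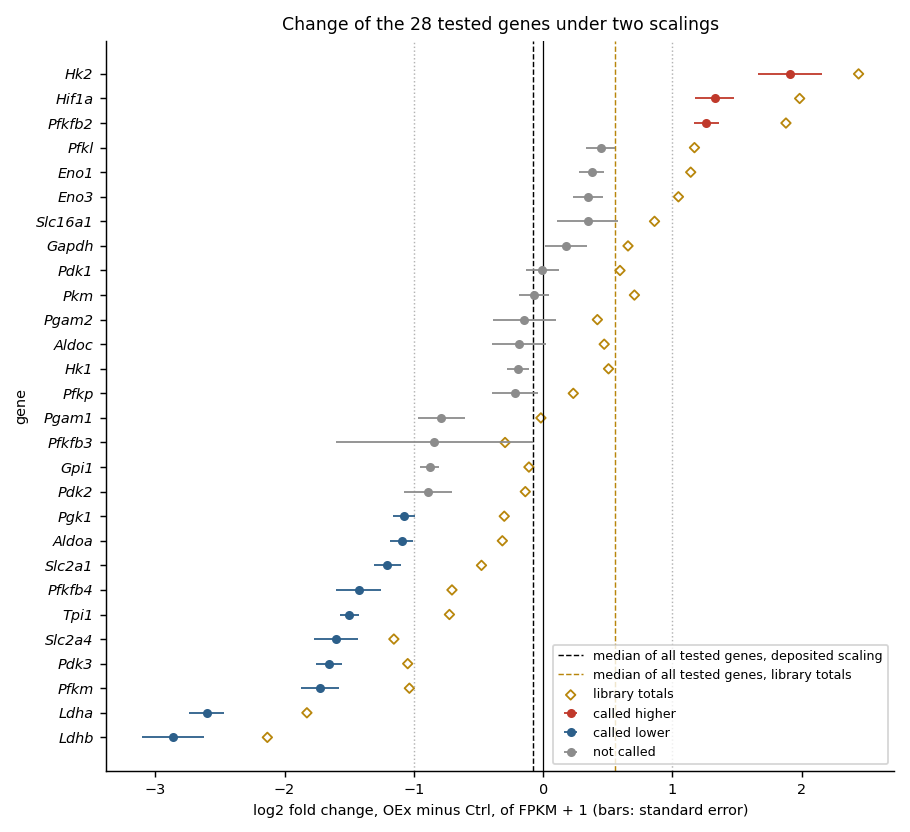
Log2 fold change (OEx minus Ctrl, of FPKM + 1) of the 28 tested genes, with bars for the standard error, coloured by call. Open diamonds give the value with library totals and dashed lines the medians of all tested genes, -0.08 with the deposited scaling and 0.56 with library totals. Ldha, Ldhb, Pfkm, Pdk3 and Slc2a4 lie below -1 under both scalings, and Hk2, Hif1a and Pfkfb2 above 1.

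The Pfkfb genes encode the enzymes that make and remove fructose 2,6-bisphosphate, the strongest activator of phosphofructokinase. Pfkfb2, the heart isoform, was at 6.91, 7.25 and 7.51 FPKM in OEx mice and at 2.26, 2.71 and 2.32 in Ctrl mice, with no overlap (log2 fold change 1.26, SE 0.09, limma adjusted p = 7.23e-05). Pfkfb4 was at 8.12, 7.83 and 6.12 FPKM in OEx mice and at 23.8, 24.6 and 16.6 in Ctrl mice, again with no overlap (log2 fold change -1.43, SE 0.18, limma adjusted p = 0.000508). The call on Pfkfb2 was lost, at 0.88, after removal of the trends over length and GC content, and that on Pfkfb4, at -0.71, with library totals. Pfkfb3, the isoform with the highest kinase activity, was at 2.33, 2.37 and 1.63 FPKM in OEx mice and at 2.04, 1.68 and 20.0 in Ctrl mice. The difference rested on Ctrl 3, the mouse with seminal vesicle genes, and the log2 fold change of -0.84 (SE 0.76, limma adjusted p = 0.357) turned to 0.12 without it. Whether seminal vesicle tissue was the source of the Pfkfb3 reads was not tested. Pfkfb1, the liver and muscle isoform, was at 0.512 to 0.717 FPKM in OEx mice and 0.229 to 0.438 in Ctrl mice and was not tested.

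Pyruvate dehydrogenase kinases phosphorylate and switch off pyruvate dehydrogenase. Pdk3 was at 2.13, 1.79 and 1.64 FPKM in OEx mice and at 8.62, 7.75 and 7.63 in Ctrl mice. It fell by 1.66 on the log2 scale (SE 0.10, limma adjusted p = 4.56e-05) without overlap and was also called with library totals, at -1.05. Pdk2, the most abundant of the kinases in every mouse, was at 16.9, 17.9 and 26.2 FPKM in OEx mice and at 42.5, 39.6 and 32.5 in Ctrl mice. Its log2 fold change was -0.89 (SE 0.19, limma adjusted p = 0.00508), beyond -1 and called without OEx 3 (-1.08) or without Ctrl 3 (-1.002), and -0.14 with library totals. Pdk1, a known target of HIF1, was at 3.003, 3.02 and 3.97 FPKM in OEx mice and at 3.67, 3.36 and 2.98 in Ctrl mice, so that the log2 fold change was -0.01 (SE 0.13, limma adjusted p = 0.974). Its share of the kinase sum was 12.8 ± 0.580% in OEx mice and 6.60 ± 0.111% in Ctrl mice, while that of Pdk3 was 7.41 ± 2.22% and 15.9 ± 1.17%, and neither overlapped between groups (exact permutation p = 0.1 for each). Pdk4, the starvation-induced kinase, was at 0.473 to 0.678 FPKM in OEx mice and 0.924 to 1.22 in Ctrl mice and was not tested.

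Hif1a (ENSMUSG00000021109.13, chromosome 12, 73901375 to 73947530 on the plus strand of GRCm38) was at 11.8, 11.4 and 9.50 FPKM in OEx mice and at 3.24, 3.31 and 4.79 in Ctrl mice. The groups did not overlap, and again replicate 3 of each group lay nearest to the other group. The log2 fold change was 1.33 (SE 0.15, limma adjusted p = 0.00037) and 1.99 with library totals. It stayed above 0 but was no longer called, at 0.75 (limma adjusted p = 0.00589), after removal of the trends over gene length and GC content.

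The promoters of 33 of the 35 genes were matched by symbol in RefSeq (GRCm38.p6), as 53 windows of 300 bases, from 250 before to 50 after a transcript start. They were searched on both strands for the letters ACGTG and GCGTG, the cores of HIF binding sites, for CACGTG, an E-box that holds ACGTG on both strands and is counted once for each, and for TGGGAA, the core bound by the Notch partner RBPJ. An ACGTG or GCGTG occurred in 38 of the 53 windows, and in 43.8% of all 32851 promoter windows of the table. Some windows of the same gene overlap, as for Eno1, Aldoa and Pfkm, so that 1 core can be counted more than once. Counted by gene, 28 of the 33 had such a core, and no share by gene was taken over all promoters. Split by call, all 5 windows of the 3 higher genes and 12 of the 15 windows of the 9 lower genes with an entry held such a core. TGGGAA occurred in 14 of the 53 windows, and in 25.6% of all windows. It was in 1 of the 5 windows of higher genes and in 2 of the 15 of lower genes. The promoters of the 2 genes of the pathway that rose most, Hk2 and Hif1a, and of the 2 that fell most, Ldha and Ldhb, are shown 5′ to 3′ on the strand of the gene, with these letters in capitals: Hk2 (chr6:82774405-82774704, minus strand), Hif1a (chr12:73907617-73907916, plus strand), Ldha (chr7:46845554-46845853, plus strand, the first of its 2 windows) and Ldhb (chr6:142507908-142508207, minus strand).
Hk2: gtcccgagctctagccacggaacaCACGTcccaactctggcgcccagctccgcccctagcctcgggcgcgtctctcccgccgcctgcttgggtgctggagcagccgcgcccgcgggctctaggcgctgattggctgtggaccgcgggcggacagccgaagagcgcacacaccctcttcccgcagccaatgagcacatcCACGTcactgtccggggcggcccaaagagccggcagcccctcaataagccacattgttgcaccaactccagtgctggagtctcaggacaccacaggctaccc
Hif1a: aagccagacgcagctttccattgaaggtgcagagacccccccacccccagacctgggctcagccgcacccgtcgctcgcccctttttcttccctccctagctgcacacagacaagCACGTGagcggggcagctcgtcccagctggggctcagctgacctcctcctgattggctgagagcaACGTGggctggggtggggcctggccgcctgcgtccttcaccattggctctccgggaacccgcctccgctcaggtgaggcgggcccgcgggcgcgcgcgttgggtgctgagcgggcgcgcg
Ldha: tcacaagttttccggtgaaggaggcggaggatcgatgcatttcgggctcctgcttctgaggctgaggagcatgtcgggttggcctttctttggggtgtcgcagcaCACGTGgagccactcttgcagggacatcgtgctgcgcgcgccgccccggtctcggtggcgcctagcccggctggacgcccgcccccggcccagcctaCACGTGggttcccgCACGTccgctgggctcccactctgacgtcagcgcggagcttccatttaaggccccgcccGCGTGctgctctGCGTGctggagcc
Ldhb: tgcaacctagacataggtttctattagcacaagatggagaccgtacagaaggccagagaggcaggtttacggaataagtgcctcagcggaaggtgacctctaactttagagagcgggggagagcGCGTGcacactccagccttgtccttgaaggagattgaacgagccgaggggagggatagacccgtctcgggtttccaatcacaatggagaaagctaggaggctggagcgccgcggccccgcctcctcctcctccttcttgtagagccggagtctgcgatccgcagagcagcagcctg
The Ldha window held 5 matches to ACGTG and 2 to GCGTG, the Hk2 window 2 and 0, the Hif1a window 3 and 0, and the Ldhb window 0 and 1. The HIF cores stood before genes that rose and before genes that fell. These are matches of letters and no sites of binding.

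Genes around the pathway were taken from 8 further lists with 99 genes, of which 79 were tested. With the deposited scaling 7 were called higher and 15 lower, where 12.9% and 15.7% of all tested genes were, and the median log2 fold change was -0.32. With library totals 24 were called higher and 8 lower, where 30.6% and 4.59% of all tested genes were. Of the 12 genes of pyruvate entry into mitochondria 11 were tested. Mpc1, a subunit of the mitochondrial pyruvate carrier, was at 2.96 to 4.23 FPKM in OEx mice and 3.61 to 4.34 in Ctrl mice. Pdha1, the subunit of pyruvate dehydrogenase that the kinases phosphorylate, was at 29.5 to 36.4 and 31.3 to 35.6 FPKM. Both overlapped between groups with the deposited scaling, with log2 fold changes of -0.14 and -0.06 (0.47 and 0.70 with library totals). Mpc2, the partner of Mpc1, had a log2 fold change of -0.92 (limma adjusted p = 0.000205), short of the fold criterion. With library totals it was -0.26 (limma adjusted p = 0.0558). Dld, a component of the pyruvate dehydrogenase complex, was at 17.3 to 18.4 FPKM in OEx mice and 8.31 to 12.8 in Ctrl mice, without overlap. Its log2 fold change of 0.82 (limma adjusted p = 0.00431) was short of the fold criterion, and it was called with library totals, at 1.54. The sole call with the deposited scaling was Me2, the mitochondrial malic enzyme, at 3.37, 3.90 and 4.15 FPKM in OEx mice against 21.8, 22.4 and 17.2 in Ctrl mice (log2 fold change -2.15, limma adjusted p = 3.92e-05).

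Large falls were measured in the polyol branch, which turns glucose into fructose by way of sorbitol. Sord, sorbitol dehydrogenase, was at 9.68, 9.48 and 22.1 FPKM in OEx mice and at 373.9, 371.5 and 235 in Ctrl mice (log2 fold change -4.55, SE 0.35, limma adjusted p = 8.16e-05). Akr1b3, aldose reductase, was at 25.7, 25.1 and 45.1 FPKM in OEx mice and at 263.9, 261.6 and 252.9 in Ctrl mice (log2 fold change -3.04, SE 0.22, limma adjusted p = 7.14e-05). Khk, which phosphorylates fructose, was lower too (log2 fold change -1.11), though not called with library totals at -0.37. For Sord and Akr1b3, OEx 3 was the OEx mouse nearest to Ctrl, as it was for the luminal marker Tgm4, at 90.7, 92.3 and 444.8 FPKM in OEx mice and 4610 to 8280 in Ctrl mice. The part of luminal cells in these falls was not tested.

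Among the other isoforms and partners, Emb, a chaperone of monocarboxylate transporters, was at 9.14, 8.31 and 16.5 FPKM in OEx mice and at 1.09, 1.26 and 1.38 in Ctrl mice (log2 fold change 2.40, SE 0.24, limma adjusted p = 0.000209). Bsg, the other chaperone of these transporters, was at 385.1 to 423.4 FPKM in OEx mice and 399.8 to 404.1 in Ctrl mice (log2 fold change -0.01, 0.77 with library totals). Ldhd, a mitochondrial D-lactate dehydrogenase, and Gapdhs, the sperm form of Gapdh, were called higher at 1.08 and 1.06. Bpgm, which makes 2,3-bisphosphoglycerate in red cells, was called lower at -1.88, with 2.79 to 3.72 FPKM in OEx mice and 9.56, 11.3 and 27.2 in Ctrl mice. The 3 erythroid markers summed to 9.60 to 23.2 FPKM in OEx mice and to 31.2, 30.6 and 119.9 in Ctrl mice, and their part in the level of Bpgm was not tested. In the pentose phosphate pathway Pgls and Taldo1 were called lower (-1.20 and -1.12). In the gluconeogenesis and glycerol list Pck2 and Fbp1 were called lower (-1.32 and -1.005) and Slc37a4, the carrier of glucose 6-phosphate into the endoplasmic reticulum, higher (1.02). In the glycogen list Pgm2, a phosphoglucomutase, was called lower (-1.46). With library totals the calls on Pgls, Taldo1, Pck2, Fbp1 and Pgm2 were lost, at -0.44, -0.34, -0.56, -0.26 and -0.73.

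The list of HIF target genes outside glycolysis had 14 tested genes, of which 2 were called higher and 5 lower. Of all tested genes 12.9% and 15.7% were. With library totals 5 of the list were called higher and 4 lower, where 30.6% and 4.59% of all tested genes were. Ddit4, an inhibitor of mTORC1, was at 16.6, 19.4 and 18.6 FPKM in OEx mice and at 165.7, 166.9 and 167 in Ctrl mice (log2 fold change -3.13, SE 0.08, limma adjusted p = 1.42e-05). Adm, Ndrg1 and Bnip3 were called lower at -2.04, -1.89 and -1.84, and these 4 calls held with library totals. Kdm3a, a histone demethylase, was at 14.8, 13.9 and 18.5 FPKM in OEx mice and at 4.11, 3.66 and 3.38 in Ctrl mice (log2 fold change 1.82, SE 0.13, limma adjusted p = 6.28e-05). Lox, lysyl oxidase, was called higher at 2.42, but it was at 19.3 and 17.6 FPKM in OEx 1 and 2 and at 1.31 in OEx 3, inside the Ctrl range of 0.465 to 1.40. Vegfa was at 13.1 to 18.5 FPKM in OEx mice and 10.8 to 18.3 in Ctrl mice, with a log2 fold change near 0 at -0.04 (0.70 with library totals). In the list of HIF pathway genes and other regulators, the kinase subunit gene Prkaa2 was the sole call among 12 tested with the deposited scaling, higher at 1.08. By the adjusted p alone 6 were higher and 5 lower, where 30.7% and 36.5% of all tested genes were. With library totals 7 were called higher and 0 lower, where 30.6% and 4.59% of all tested genes were.

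**Figure D4:**
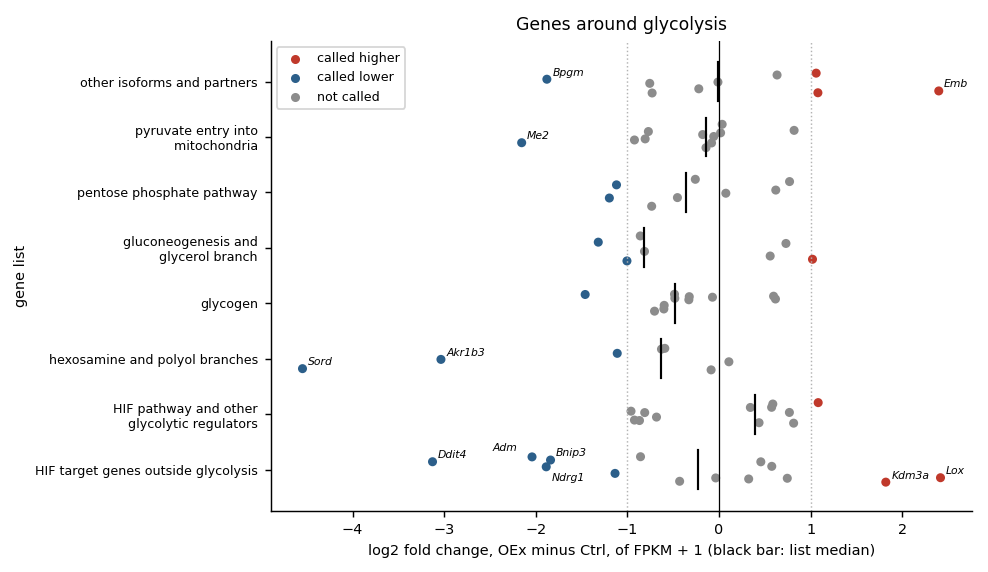
Log2 fold change (OEx minus Ctrl, of FPKM + 1) of the 79 tested genes in 8 lists around glycolysis, coloured by call, with a black bar for the median of each list and dotted lines at -1 and 1. Names are given for the calls with the largest changes. Sord, Ddit4 and Akr1b3 lie furthest to the left, and Lox, Emb and Kdm3a furthest to the right.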

How the data were processed

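RNA-seq of the AP of 3 OEx and 3 Ctrl mice was used. The authors deposited a table of FPKM values for each mouse. The submitters' processing notes name HISAT2 2.0.5, featureCounts 1.5.0-p3, StringTie 1.3.3b and CASAVA, and the genome build and annotation are not given in the sources used here. The values were matched by symbol to GENCODE M21 (GRCm38) for 53712 of 55076 entries, and reads were recovered from the exon length and the value of 1 read. Between 96.9% and 97.5% of values under 1000 reads were whole within 0.05 reads. A floor of 3 reads was a CPM of 0.161 to 0.203, which covers counting error only.

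The groups were compared on log2(FPKM + 1) with limma 3.58.1 (R 4.3.3), which understates the change of low genes, over the 12833 entries with a mean of at least 1 FPKM, with an intensity trend and Benjamini-Hochberg adjustment. Calls needed an adjusted p under 0.05 and a fold change above 2, the criteria of the study. The fit was tested on simulated data. These had few changed genes and the same spread in every mouse, so the test does not cover the distance of replicate 3. Exact two-sided permutation tests over the 20 assignments of mice cannot go below 0.1. The alternatives were other filters, pseudocounts, scalings and call rules, limma without the trend, limma-voom on recovered reads, removal of lowess trends (span 0.3) over exon length and GC content, a replicate block, and each mouse left out. Shared sequence was counted as 50-base stretches of the principal transcript. Python 3.11.15 with pandas 2.3.3, numpy 2.4.6 and matplotlib 3.10.9 made the tables and plots.

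All 35 genes are accounted for, with full statistics for called genes and for means of at least 10 FPKM. Of the other lists, up to 4 called genes per direction are named, and genes whose role the text needs. The members and lists were chosen with earlier results of these data known. Same-numbered mice did not deviate together (correlations -0.194, -0.189 and -0.307), so the numbers were not taken as pairs.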

Additional observations from a re-analysis of the deposited data

How the results depend on the processing

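The count of higher and lower genes of the pathway was 3 and 10 with the deposited scaling, where 12.9% and 15.7% of all tested genes were. With library totals the counts were 6 and 5, where 30.6% and 4.59% of all tested genes were. Those of the other lists were 24 and 8 (7 and 15 with the deposited scaling). The median of the tested genes of the pathway turned from -0.50 to 0.11. Library totals without the 20 most abundant genes gave 12 and 9 for the other lists, where 19.7% and 9.38% of all tested genes were. The median of the pathway was then -0.23. Upper quartile scaling gave 11 higher genes of the other lists, where 2341 of all 12833 tested genes were higher, and a median of -0.28. Both of these scalings also ended the calls on Slc2a1 (-0.89 and -0.94), Aldoa (-0.76 and -0.82) and Pgk1 (-0.74 and -0.80). A mean of at least 5 FPKM left 1 higher gene of the pathway and 4 of the other lists, where 681 of 7165 tested genes were higher. The median was -0.88 there and -0.19 with no filter, because other genes were tested. Removal of the length and GC trends gave 2 higher and 6 lower genes of the pathway, with or without the replicate block. In both fits Hif1a and Pfkfb2 lost their calls and Eno3 gained one. Without the fold criterion 6 genes of the pathway were higher, and 22 and 37 of the other lists were higher and lower. Of all tested genes 30.7% and 36.5% were. With each mouse left out, the higher genes of the pathway stayed at 3, the lower ones ran from 10 to 12, those of the other lists from 5 to 6 and from 14 to 16, and the median from -0.55 to -0.39. Among all 12833 tested genes 1614 to 1726 were higher and 1987 to 2043 lower in these fits. Leaving out replicate 3 of both groups, an alternative chosen after seeing the data, gave 3 and 12, and 6 and 18 for the other lists. Of all tested genes 14.2% and 16.5% were higher and lower in that fit. The replicate block alone gave 3 and 10, and 6 and 15 for the other lists, and changed no call of a tested gene of the pathway. With that block 1611 and 1986 of all 12833 tested genes were higher and lower. The precision is limited by 3 mice per group, of which replicates 1 and 2 were far closer to each other than to replicate 3.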
